A study of Mus musculus with 12 samples.

Results

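Wild type cells and cells of the genotype labelled arid4b∆, both from the CJ9 line of mouse embryonic stem cells, were compared after 5 days of direction to endoderm. The comparison covers 3 libraries of each genotype, 6 of the 12 libraries of the series. The other 6 are the same genotypes directed to mesoderm. They enter the filter on low counts, the scaling, the shared estimate of spread and the test of whether an effect differed between directions. With only the 6 endoderm libraries, 10882 genes passed the filter. The members are all genes of the deposited count table that passed a filter on low counts, 11635 in number, with the ribosomal RNA precursor Rn45s left out of library sizes. The labels give neither the deleted part of Arid4b nor the number of clones or separate cultures behind the libraries, so the p-values measure only how far these libraries spread, and that spread may be technical. In bulk RNA, fewer cells of a type and less RNA per cell cannot be told apart.

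Arid4b encodes an AT-rich interaction domain protein of the SIN3 histone deacetylase complex, which removes acetyl groups from histones at many promoters. The series asks what Arid4b does when stem cells commit to a lineage. Cells that form endoderm pass through a stage resembling the primitive streak, in which Nodal, Wnt, FGF and BMP signals act and cells change their adhesion and their guidance receptors as they move. Total counts per endoderm library lay between 13631265 and 35660108. Rn45s took 79.7% to 81.8% of them, and 2773721 to 6678893 counts remained. Mir6236 and Lars2 took 49.7% to 64.9% of these, so all other genes shared 1378827 to 2342887 counts per library. All levels are in CPM, counts scaled to the library size times its TMM factor (trimmed mean of M values). By library size alone 3 counts would be worth 0.449 to 1.08 CPM. With the factors, the 3 wild type counts of Dppa2, 1 per library, were worth 0.291, 0.171 and 0.283 CPM. Levels of different genes are not set against each other, since CPM is not per length.

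Arid4b itself stood at 41.6, 44.6 and 36.7 CPM in the 3 wild type libraries and at 42.7, 51 and 44.9 CPM in the libraries labelled knockout. The groups overlapped, and the difference was not called (log2 fold change 0.17 ± 0.11 SE, adjusted p = 0.365). The count of the whole gene therefore gives no check of the deletion, and "knockout" below means the libraries so labelled. The defining endoderm markers Sox17, Foxa2, Cxcr4, Gata6, Gata4 and Hhex were present in every wild type library, at 6.22 to 30.2 CPM, and all 6 fell in the knockout, where they stood at 0.169 to 7.26 CPM.

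A gene is called here when the edgeR quasi-likelihood test gives a Benjamini-Hochberg adjusted p below 0.05 over all tested genes. Called genes numbered 1478 of 11635 (12.7%), 673 higher in the knockout (5.78%) and 805 lower (6.92%), and 594 differed by 2-fold or more. The 2 genotypes separated on the first principal component of the 6 libraries, which held 59.1% of the variance. For 3512 genes (30.2%) the 3 knockout libraries all lay on 1 side of the 3 wild type libraries. Scaling moved the balance: with library totals alone the median of all genes went from -0.0037 to -0.15 on the log2 scale, and 255 of 1019 called genes were higher (25.02%, against 45.5% with TMM factors, the trimmed means of M values used otherwise). These totals include Mir6236 and Lars2. Together they took 58.1%, 59.0% and 49.7% of counts outside Rn45s in wild type and 59.4%, 64.9% and 54.6% in the knockout. With both left out and TMM factors kept, the median was -0.0018 and 46.1% of called genes were higher. Their part in the shift under library totals was not tested. Without wild type library 2, 836 genes were called (319 higher, 517 lower), and without knockout library 2, 448 were called higher. In fixed panels, 23 of 29 streak genes fell and 2 rose, 13 of 19 endoderm genes fell and 1 rose, and 54 of 73 interferon genes rose and 2 fell. The results below concern other genes and functions.

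**Figure D1:**
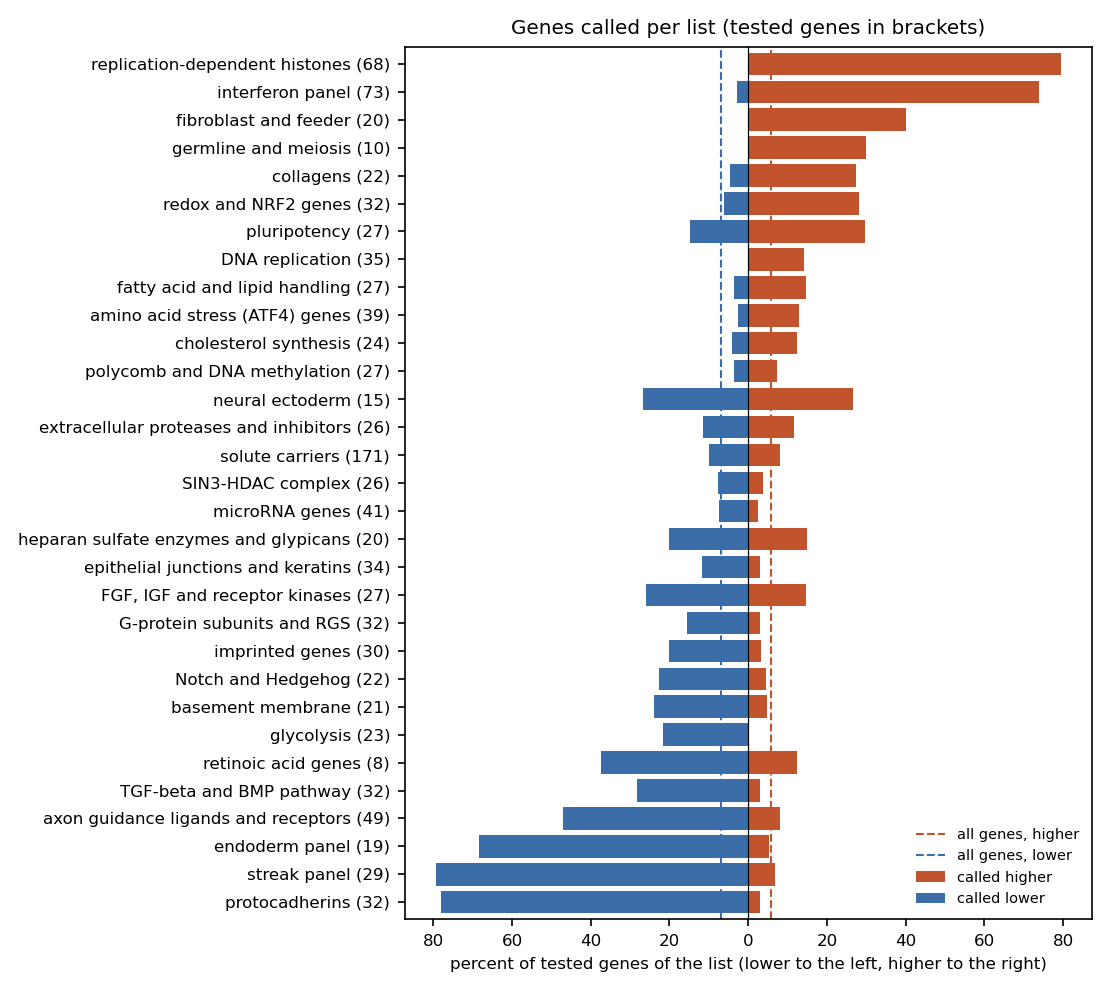
Percent of the tested genes of each list that were called higher (red, to the right) or lower (blue, to the left) in the knockout in the endoderm direction, with the number of tested genes in brackets and the shares over all genes as dashed lines (5.78% higher, 6.92% lower). Protocadherins and guidance genes lie far to the left, replication-dependent histones, matrix genes and redox genes to the right.

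The calls were not spread evenly over chromosomes. On chromosome 8, 120 of 648 tested genes were higher (18.5%) and 20 lower, and the median gene was 0.23 higher on the log2 scale. The chromosome's share of counts outside Rn45s, Mir6236 and Lars2 was 4.96% to 5.23% in wild type and 5.80% to 6.01% in the knockout. The mesoderm libraries gave a like median of 0.27. On chromosome 11 the median was -0.10 and 83 of 927 genes were lower, against 19 higher. Of 8 tested genes of chromosome Y, Uty, Ddx3y and Eif2s3y, chosen after their values were seen, fell by 12.6-fold, 13.9-fold and 6.31-fold and were still counted in every knockout library. The part that chromosome number or loss has in these counts was not tested. Genes of chromosome 8 are pointed out below where they make up much of a group.

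**Figure D2:**
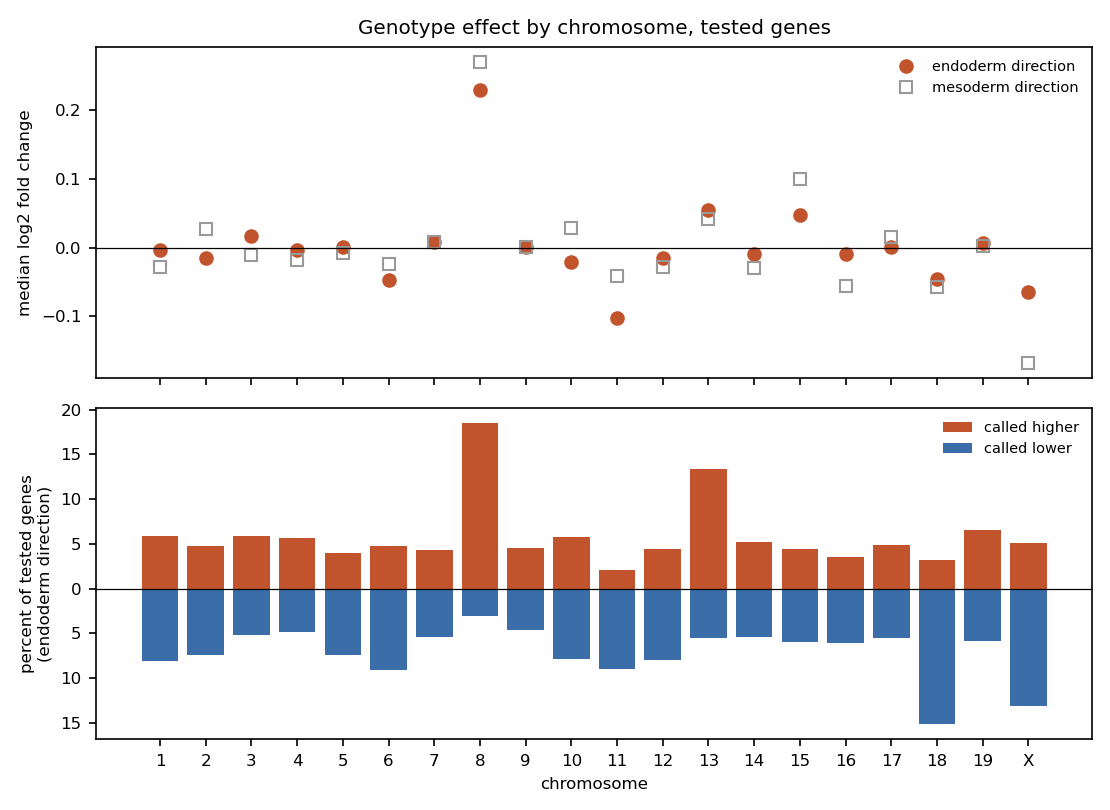
Top, median log2 fold change of the tested genes of each chromosome in the endoderm direction (filled circles) and the mesoderm direction (open squares). Bottom, percent of tested genes called higher (red) and lower (blue) in the endoderm direction. Chromosome 8 stands above the others in both (median 0.23 and 0.27, 18.5% called higher). Chromosome 13 holds the large histone gene cluster.

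The cluster of Mir302 and Mir367 genes, which is transcribed in pluripotent and early germ layer cells, was counted less in the knockout. Its hairpins lie at chr3:127545228-127545807 of GRCm38.p6, plus strand. The mature 3p strands in the RefSeq table of that build are shown because their seeds (bases 2 to 8, in capitals) define the targets they share. In RefSeq's listing miR-302b-3p and miR-302d-3p have the same seed, miR-302c-3p is listed from 1 base further in so that its seed letters are shifted, and miR-367-3p has a seed of its own.
mmu-miR-302b-3p: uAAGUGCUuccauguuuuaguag
mmu-miR-302c-3p: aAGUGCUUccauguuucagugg
mmu-miR-302d-3p: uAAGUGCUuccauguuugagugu
mmu-miR-367-3p: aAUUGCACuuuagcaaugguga

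These libraries count reads over the hairpin genes, not mature microRNAs. Mir302a stood at 2.04, 4.29 and 3.11 CPM in wild type and 1.16, 0.677 and 0.404 in the knockout (log2 fold change -2.17 ± 0.54 SE, adjusted p = 0.00932). Mir367 stood at 2.33, 3.77 and 2.26 CPM against 1.45, 0.508 and 0 (log2 fold change -2.30 ± 0.58 SE, adjusted p = 0.011). In both the groups did not overlap. Both calls rested on single libraries: the adjusted p was 0.101 for Mir302a and 0.11 for Mir367 without wild type library 2, 0.0544 and 0.0632 without knockout library 3, and 0.0658 for Mir367 without knockout library 2. Mir302b, Mir302c and Mir302d were too low to be tested, with 19, 21 and 18 counts summed in wild type and 4, 3 and 4 in the knockout. The 5 hairpins together had 36, 67 and 36 counts in wild type and 13, 12 and 4 in the knockout, a ratio of 5.94 per library size (exact 95% binomial interval 3.96 to 9.19, counting error only). The cluster lies within Larp7, a gene of the other strand that encodes a 7SK RNA binding protein and was chosen after its value was seen. Larp7 stood at 71.3, 84.7 and 74.6 CPM against 51.7, 43.9 and 48.5 (log2 fold change -0.69 ± 0.15 SE, adjusted p = 0.00403). Nothing in the sources used here gives the strand setting of the counting. The reads of the hairpins and those of Larp7 therefore cannot be told apart. Of 41 tested microRNA genes, 3 were called lower (7.32%) and 1 higher (2.44%), against 6.92% and 5.78% over all genes. The lower count moved with the filter on low counts, to 11 of 96 with at least 1 CPM in 3 libraries and 13 of 716 with no filter, and to 0 of 32 when only the 6 endoderm libraries were fitted. Over all genes these settings called 837 of 13416, 939 of 19653 and 872 of 10882 lower. The other called microRNA genes were Mir432 (2.26 lower on the log2 scale, adjusted p = 0.0183) and Mir7029 (1.01 higher, adjusted p = 0.0426). Neither call was kept without wild type library 1, with adjusted p of 0.057 and 0.122, and no microRNA gene was called lower without knockout library 3.

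Guidance genes, which steer migrating cells and growing axons through secreted netrins, slits and semaphorins and membrane-bound ephrins, fell in many cases. Of 49 tested ligands and receptors 23 fell and 4 rose, and the median log2 fold change was -0.47 against -0.0037 over all genes. In 22 of the 23 the genotypes did not overlap, which a call on the same libraries makes likely. Over all genes, called or not, 15.5% lay below wild type. Ntn1, which encodes the secreted ligand netrin-1, was counted at 24.4, 26.4 and 22 CPM in wild type and 0.291, 1.35 and 1.21 in the knockout (log2 fold change -4.51 ± 0.31 SE, adjusted p = 1.46e-09). Sema6d, a transmembrane semaphorin, went from 21.8, 25.9 and 19.8 to 2.03, 1.02 and 0.809 CPM (log2 fold change -4.21 ± 0.29 SE, adjusted p = 1.46e-09). Both are among the 14 largest falls, which were chosen without overlap, and every knockout library was at or below 2.03 CPM. The ephrin receptor genes Epha1 and Epha2 fell by 2.67-fold and 2.6-fold. Epha1 stood at 49.8, 42.7 and 50.6 CPM against 15.7, 17.6 and 19.4 (log2 fold change -1.42 ± 0.14 SE, adjusted p = 2.96e-07), and Epha2 at 27.1, 35 and 35 against 14.5, 10.7 and 12.9 (log2 fold change -1.38 ± 0.18 SE, adjusted p = 1.21e-05).

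Further members that fell, chosen after their values were seen, cover ligands and receptors alike. Rgma, a BMP co-receptor and ligand of neogenin, stood at 12.8, 12 and 13 CPM in wild type and 4.65, 2.71 and 2.22 in the knockout (log2 fold change -2.03 ± 0.32 SE, adjusted p = 0.000124). The semaphorin receptor gene Plxna2 stood at 18, 23.3 and 21.8 against 8.14, 3.89 and 2.43 CPM (log2 fold change -2.24 ± 0.38 SE, adjusted p = 0.000287). Slit3, a slit ligand gene, fell from 72.2, 69.8 and 71.8 to 42.7, 45.5 and 32.4 CPM (log2 fold change -0.82 ± 0.12 SE, adjusted p = 3.05e-05), and Slit1 and Slit2 also fell. The other members that fell were Epha7, Efna1, Efna3, Efna4, Efna5, Efnb3, Sema3a, Sema3f, Sema5a, Sema6c, Rgmb, Unc5b, Plxnb2 and Nrp1. The 4 that rose, also chosen after their values were seen, were Sema3c (log2 fold change 0.81 ± 0.23), Sema4d (0.66 ± 0.16), Ephb1 (1.42 ± 0.41) and Ephb4 (0.43 ± 0.12). None of these calls held in every alternative. Library totals ended those of Sema3c (adjusted p 0.111), Sema4d (0.169) and Ephb4 (0.569), DESeq2 those of Sema3c (0.106), Ephb1 (0.0955) and Ephb4 (0.141), and leaving out 1 library at least once ended each of the 4 (0.052 to 0.237). When 1 library at a time was left out, 16 to 22 members were lower and 1 to 3 higher. The fewest lower calls came without wild type library 2 and the fewest higher ones without knockout library 2. DESeq2 called 16 lower and 1 higher.

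**Figure D3:**
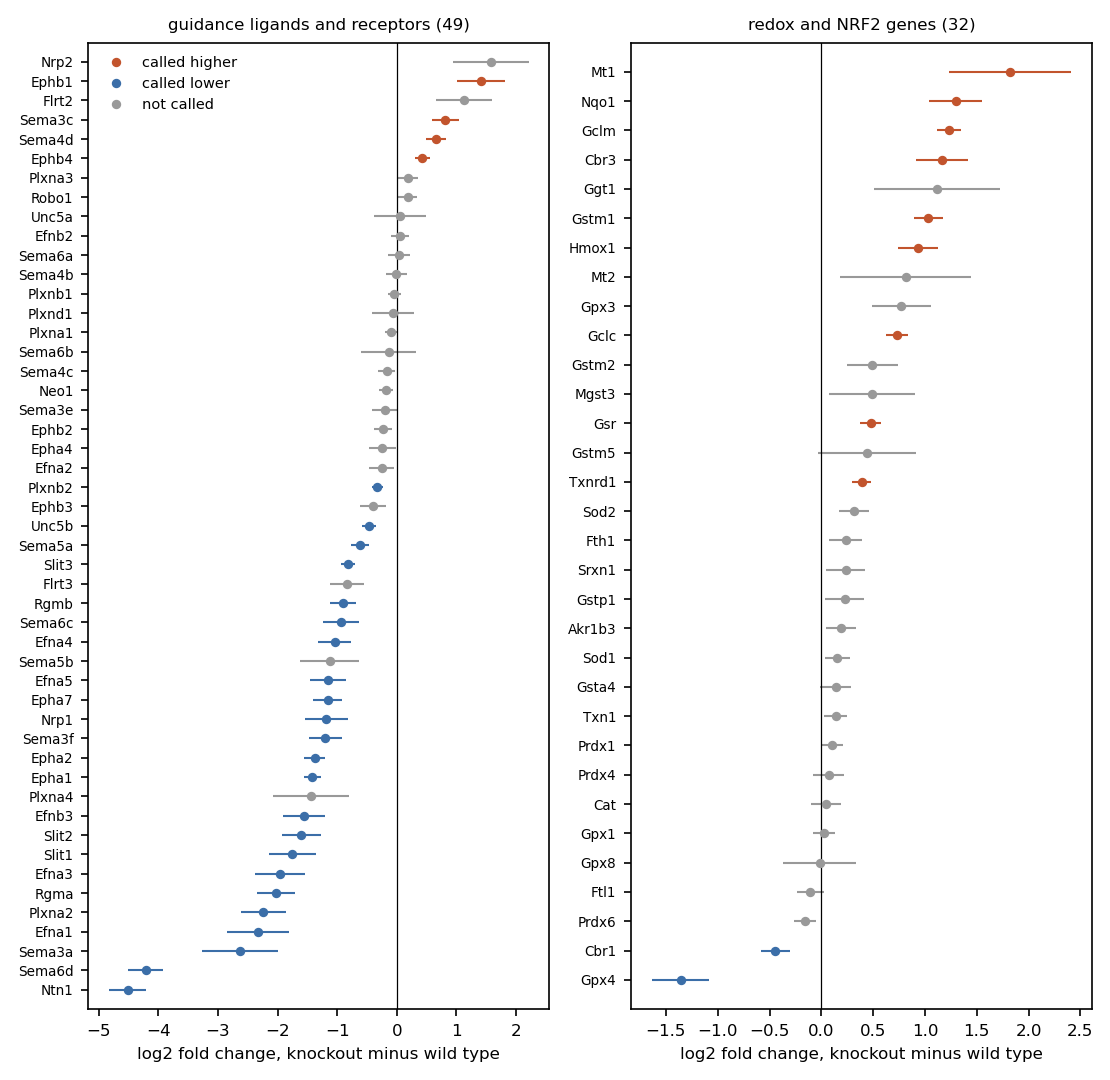
Log2 fold change of each tested guidance gene (left, 49 genes) and redox or NRF2 gene (right, 32 genes), knockout minus wild type in the endoderm direction, with standard errors as bars. Points are red where called higher, blue where called lower and grey where not called. 23 guidance genes lie to the left of 0 as called, and 9 redox genes to the right.

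Adhesion genes were called in several families. Cdh2, which encodes N-cadherin, the cadherin gained by cells that leave the epiblast, stood at 28.5, 56.2 and 28.5 CPM in wild type and 2.61, 1.52 and 2.83 in the knockout (log2 fold change -4.09 ± 0.37 SE, adjusted p = 6.9e-08). Of 32 tested protocadherin genes, which encode cadherin-like recognition proteins, 25 were lower and 1 higher, with a median of -0.67. Pcdh8 (paraxial protocadherin) stood at 26.5, 26.4 and 21.8 CPM against 4.65, 5.08 and 4.85 (log2 fold change -2.35 ± 0.18 SE, adjusted p = 4.51e-09), and Pcdh7 at 42.8, 47.3 and 48 against 14.2, 9.31 and 6.47 (log2 fold change -2.26 ± 0.22 SE, adjusted p = 1.89e-07). The other 23 lower protocadherins belong to the clustered genes, whose gamma members share 3' exons, so the authors' counting may have given them the same reads and they are not 23 separate results. Pcdhgc3 represents them at 46, 36.4 and 43.8 CPM against 33.4, 19.13 and 17.6 (log2 fold change -0.88 ± 0.19 SE, adjusted p = 0.00323). That cluster's calls rested on few libraries: 4 protocadherins were lower without knockout library 2 and 4 without knockout library 3, 8 without wild type library 1 and 16 without wild type library 3. DESeq2 called 17 lower. Pcdh1 was the 1 member called higher, and none was higher under library totals or when any 1 library but knockout library 1 was left out.

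Of 34 tested junction and keratin genes 4 fell (11.8%) and 1 rose (2.94%), against 6.92% and 5.78% over all genes. Their median was -0.02. Dsp, which encodes the desmosome protein desmoplakin, went from 78.3, 78.9 and 81.1 to 18.9, 20.1 and 23.7 CPM (log2 fold change -1.92 ± 0.18 SE, adjusted p = 1.19e-07). Krt8, a keratin of simple epithelia, went from 50.6, 44.2 and 42.9 to 21.8, 14.6 and 22.4 CPM (log2 fold change -1.25 ± 0.22 SE, adjusted p = 0.000465). Grhl2, a transcription factor of epithelial junction genes, was 1.75-fold higher (log2 fold change 0.81 ± 0.18 SE, adjusted p = 0.00333). The remaining calls in this list, Cldn12 (adjusted p = 0.0456) and Krt18 (chosen after its value was seen, adjusted p = 0.0487), were near the threshold. Cldn12 was lost without any 1 library but knockout library 3 (0.0857 to 0.161), Krt18 when library 1 or 2 of wild type or 2 or 3 of the knockout was left out (0.127 to 0.307), and both by DESeq2 (0.218 and 0.115). In the basement membrane, 5 of 21 tested genes fell and 1 rose. Frem2 and Fras1, partners in a complex that anchors epithelia, stood at 55.6, 52.5 and 58.2 and 32.9, 23 and 36.7 CPM in wild type and at 12.2, 8.97 and 9.71 and 20.05, 15.6 and 17.6 in the knockout. Frem2 fell by 5.47-fold (log2 fold change -2.45 ± 0.15 SE, adjusted p = 3.1e-10) and Fras1 by 1.72-fold (log2 fold change -0.79 ± 0.18 SE, adjusted p = 0.00602). The call of Fras1 was lost at an adjusted p of 0.05 without wild type library 3. The laminin chain genes Lama5, Lamb1 and Lamc1 were 1.30-fold, 1.37-fold and 1.30-fold lower, the last 2 chosen after their values were seen. Each was lost without 4 or 5 of the libraries, 1 at a time (Lama5 0.0751 to 0.113, Lamb1 0.0617 to 0.153, Lamc1 0.0613 to 0.17), and Lama5 and Lamc1 under library totals (0.0531 and 0.0607). In all, 2 to 4 basement membrane genes were lower when 1 library was left out, 2 of them without wild type library 2, wild type library 3 or knockout library 3. Col18a1, a basement membrane collagen, rose 1.93-fold (log2 fold change 0.95 ± 0.12 SE, adjusted p = 1.21e-05).

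Among signalling genes, those of the TGF-beta and BMP pathway had 9 of 32 members lower and 1 higher, with a median of -0.17. The ligand genes Bmp2 and Bmp7 fell, Bmp2 from 5.53, 7.89 and 4.24 to 0.872, 0.339 and 0.404 CPM (log2 fold change -3.54 ± 0.51 SE, adjusted p = 4.86e-05) and Bmp7 (chosen after its value was seen) from 7.86, 7.89 and 6.5 to 1.74, 2.03 and 0.809 (log2 fold change -2.26 ± 0.36 SE, adjusted p = 0.000147). Chrd, a secreted BMP antagonist made by the anterior streak, went from 10.8, 9.77 and 7.06 to 0.872, 1.19 and 1.42 CPM (log2 fold change -2.93 ± 0.38 SE, adjusted p = 1.05e-05). Tgfbr3, the co-receptor betaglycan, went from 55.9, 52.6 and 56.8 to 11.6, 5.08 and 4.85 CPM (log2 fold change -3.03 ± 0.22 SE, adjusted p = 3.25e-09). Inside the cell, the BMP effector gene Smad1 fell from 48.6, 47.8 and 43.8 to 25.9, 26.1 and 28.5 CPM (log2 fold change -0.80 ± 0.11 SE, adjusted p = 3.07e-05) and lies on chromosome 8, and the inhibitor and BMP target Smad6 (chosen after its value was seen) from 6.11, 3.77 and 4.52 to 0.872, 1.02 and 0.607 (log2 fold change -2.44 ± 0.38 SE, adjusted p = 0.000122). Smad5, Msx1 and Id3 were the other members that fell, and Bmpr1b the member that rose, and no member was higher when any 1 library but knockout library 1 was left out.

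FGF, IGF and receptor kinase genes moved both ways, with 7 of 27 lower and 4 higher. Fgf10, a ligand of the gut and lung mesenchyme, was close to absent in the knockout, at 7.27, 7.2 and 8.76 CPM in wild type and 0.291, 0.169 and 0.404 in the knockout (log2 fold change -4.64 ± 0.50 SE, adjusted p = 6.89e-07). Flt1, the VEGF receptor that captures ligand, stood at 57.9, 72.4 and 53.1 CPM against 6.1, 3.39 and 4.65 (log2 fold change -3.76 ± 0.21 SE, adjusted p = 7.34e-11). The apelin receptor gene Aplnr, expressed in streak-derived cells, stood at 6.98, 7.03 and 10.5 CPM against 0, 0.339 and 0.404 (log2 fold change -4.71 ± 0.58 SE, adjusted p = 4.95e-06). Its ligand gene Apln, chosen after its value was seen, fell along with it, from 4.95, 5.49 and 9.32 to 0.872, 1.19 and 1.01 CPM (log2 fold change -2.59 ± 0.39 SE, adjusted p = 6.39e-05). Pdgfa and Ror2, also chosen after their values were seen, fell by 5.07-fold and 4.6-fold. The opposite was seen for Fgf4, the FGF of pluripotent cells, at 5.82, 4.63 and 8.19 CPM in wild type and 28.5, 23.4 and 39.6 in the knockout (log2 fold change 2.34 ± 0.24 SE, adjusted p = 3.73e-07), and for Igfbp5, a binding protein of insulin-like growth factors, at 36.4, 30.01 and 27.1 against 125, 129 and 91.2 CPM (log2 fold change 1.89 ± 0.18 SE, adjusted p = 1.4e-07). Fgf15 and Ddr2 rose as well, and Igfbp3, Fgf5 and Igf1r fell.

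Wnt8a, a streak-stage Wnt ligand, went from 13.4, 10.3 and 13.6 to 0.872, 0.847 and 0.607 CPM (log2 fold change -3.94 ± 0.39 SE, adjusted p = 2.09e-07). In the Notch and Hedgehog list 5 of 22 genes fell and 1 rose. The ligand gene Jag1 fell from 30.8, 44.2 and 31.1 to 11.9, 11.7 and 11.1 CPM (log2 fold change -1.64 ± 0.17 SE, adjusted p = 3.72e-07), and Dll3 from 9.6, 10.1 and 9.89 to 2.32, 3.72 and 4.85 (log2 fold change -1.39 ± 0.30 SE, adjusted p = 0.00287). Known readouts of Notch signalling, the repressor gene Hes1 and the feedback inhibitor gene Nrarp, fell by 2.11-fold and 2.28-fold, with Hes1 at 32, 42.7 and 29.1 CPM against 14.8, 15.4 and 19.4. Cdon was the other member that fell and Gli3 the member that rose.

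Enzymes that shape heparan sulfate, the sugar chain that holds FGFs and Wnts at the cell surface, also changed. Hs3st3b1, a 3-O-sulfotransferase, stood at 10.5, 13 and 11.6 CPM in wild type and 0.581, 0.508 and 0 in the knockout (log2 fold change -4.96 ± 0.57 SE, adjusted p = 2.14e-06). The sulfatase gene Sulf1 fell from 101, 88 and 98.9 to 43, 49.3 and 52.6 CPM (log2 fold change -0.98 ± 0.13 SE, adjusted p = 1.2e-05) and the glypican gene Gpc3 from 23.9, 41.2 and 24 to 11, 6.77 and 11.5 (log2 fold change -1.67 ± 0.23 SE, adjusted p = 2.41e-05). With Hs6st2, 4 of 20 members fell, while Hs6st1, Sdc3 and Sdc2 rose. Hs6st1 was 1.59-fold higher (log2 fold change 0.67 ± 0.13 SE, adjusted p = 0.00116), a call lost under library totals (0.124). In this list 1 to 2 members were higher when 1 library was left out (1 with wild type library 1 or 3 or knockout library 1 left out) or under library totals (1). Among extracellular proteases the aggrecan-cleaving enzyme gene Adamts9 fell from 84.7, 104 and 80.2 to 9.59, 8.63 and 7.89 CPM (log2 fold change -3.38 ± 0.15 SE, adjusted p = 3.54e-12). Adam19 fell from 19.8, 35 and 26.3 to 4.94, 2.37 and 4.25 CPM (log2 fold change -2.90 ± 0.29 SE, adjusted p = 3.1e-07), and Adam23 rose from 22.7, 23.1 and 25.4 to 48.2, 58.1 and 67.1 (log2 fold change 1.30 ± 0.16 SE, adjusted p = 6.03e-06). Of 26 members 3 fell and 3 rose (11.5% each), against 6.92% and 5.78% over all genes. Leaving out 1 library gave 1 to 5 higher, 5 without wild type library 1 and 1 when library 2 or 3 of wild type, or 1 or 2 of the knockout, was left out. Plau, the urokinase gene, was among those lost, at 2.04, 0.514 and 0.565 against 6.1, 3.56 and 2.22 CPM (adjusted p = 0.0251, and 0.0593 to 0.176 when any of the same 4 was left out).

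The retinoic acid list had 8 tested genes, of which 3 fell and 1 rose. Cyp26a1, the enzyme that breaks down retinoic acid and is itself induced by it, had 121 counts summed in wild type and 2 in the knockout, a ratio of 75 per library size (exact 95% binomial interval 20.3 to 626, counting error only). Per library it stood at 5.24, 10.8 and 11.3 CPM in wild type and 0, 0.339 and 0 in the knockout (adjusted p = 6.69e-07). Dhrs3, a retinal reductase also induced by retinoic acid, went from 6.69, 8.06 and 4.52 to 2.61, 3.05 and 2.02 CPM (log2 fold change -1.34 ± 0.32 SE, adjusted p = 0.00708). Crabp2, a retinoic acid carrier, was higher, at 2.91, 1.37 and 1.41 against 5.52, 3.56 and 4.85 CPM (log2 fold change 1.31 ± 0.43 SE, adjusted p = 0.0473). Of this list, Cyp26a1 alone was called when wild type library 2 was left out, where the adjusted p was 0.0907 for Dhrs3 and 0.232 for Crabp2. Crabp2 was also lost when wild type library 3, knockout library 1 or knockout library 3 was left out (0.109 to 0.138). DESeq2 called neither Dhrs3 (adjusted p 0.059) nor Crabp2 (0.109), and Crabp2 was also lost under library totals (0.0637) and by limma-voom (0.0801).

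The Cyp26a1 promoter is shown because retinoic acid receptors are known to bind direct repeats of hexamers in front of genes they induce. The 300 bases shown are chr19:37697558-37697857 of GRCm38.p6, plus strand, and RefSeq starts the gene at 37697738, inside them. Capitals mark a direct repeat of TGAACT spaced by 5 bases. Its distance from the start is not given here.
Cyp26a1: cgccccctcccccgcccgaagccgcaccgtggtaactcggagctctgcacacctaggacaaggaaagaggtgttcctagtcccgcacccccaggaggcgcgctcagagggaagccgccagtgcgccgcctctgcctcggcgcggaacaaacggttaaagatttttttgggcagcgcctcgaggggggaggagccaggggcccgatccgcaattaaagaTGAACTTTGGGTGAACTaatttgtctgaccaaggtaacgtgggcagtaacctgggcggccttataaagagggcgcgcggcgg
Searched on both strands as TGAACTNNNNNTGAACT, a motif chosen after the value of Cyp26a1 was seen, it occurred in 1 of the 9244 promoters of tested genes, this one (0.0108%). The match is a description of the letters and says nothing of binding in these cells.

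Genes of G-protein signalling included Rgs8. Rgs8, a regulator that shortens G-protein signals, had 100 counts summed in wild type and 1 in the knockout, a ratio of 124 per library size (exact 95% binomial interval 21.7 to 4.94e+03). It stood at 6.69, 8.06 and 8.48 CPM in wild type and 0, 0 and 0.202 in the knockout (adjusted p = 5.46e-07). Rgs16, of the same family, went from 7.56, 5.66 and 4.8 to 1.74, 1.19 and 1.21 CPM (log2 fold change -2.13 ± 0.45 SE, adjusted p = 0.00253), and the inhibitory alpha subunit gene Gnai1 from 23.9, 20.6 and 17 to 8.14, 7.28 and 10.7 (log2 fold change -1.23 ± 0.25 SE, adjusted p = 0.00157). Rgs9bp, which anchors another regulator, rose from 2.33, 3.26 and 3.67 to 7.55, 7.79 and 8.09 CPM (log2 fold change 1.32 ± 0.28 SE, adjusted p = 0.00276). In all 5 of 32 list members fell and 1 rose, and 3 fell without wild type library 2. Dgkk, a diacylglycerol kinase gene outside the list, went from 35.5, 58 and 39.8 to 1.74, 1.86 and 3.24 CPM (log2 fold change -4.27 ± 0.39 SE, adjusted p = 7.32e-08).

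The 14 largest falls held several genes of other roles. Foxq1, a forkhead transcription factor, went from 17.7, 30.2 and 19.8 to 1.74, 1.02 and 1.21 CPM (log2 fold change -4.15 ± 0.32 SE, adjusted p = 4.51e-09). Upp1, the uridine phosphorylase that frees ribose from uridine, went from 31.4, 47.3 and 33.3 to 1.74, 1.52 and 1.42 CPM (log2 fold change -4.59 ± 0.28 SE, adjusted p = 2.65e-10). Alox15, a lipoxygenase of polyunsaturated fatty acids, went from 9.02, 9.6 and 9.61 to 0.581, 0.508 and 0.809 CPM (log2 fold change -3.84 ± 0.81 SE, adjusted p = 0.00265). Its adjusted p was 0.0864 by limma-voom. Pkhd1l1, which encodes a large membrane protein, went from 4.36, 7.2 and 6.78 to 0.581, 0.169 and 0.404 CPM (log2 fold change -4.03 ± 0.50 SE, adjusted p = 6.29e-06). Foxj1, the master factor of motile cilia and chosen after its value was seen, went from 7.86, 9.95 and 5.93 to 0.581, 1.02 and 1.01 CPM (log2 fold change -3.11 ± 0.49 SE, adjusted p = 0.000114). In every gene of this paragraph the knockout libraries lay below all wild type libraries. The choice of the 14 largest falls required this, and Foxj1 was chosen with its values seen.

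**Figure D4:**
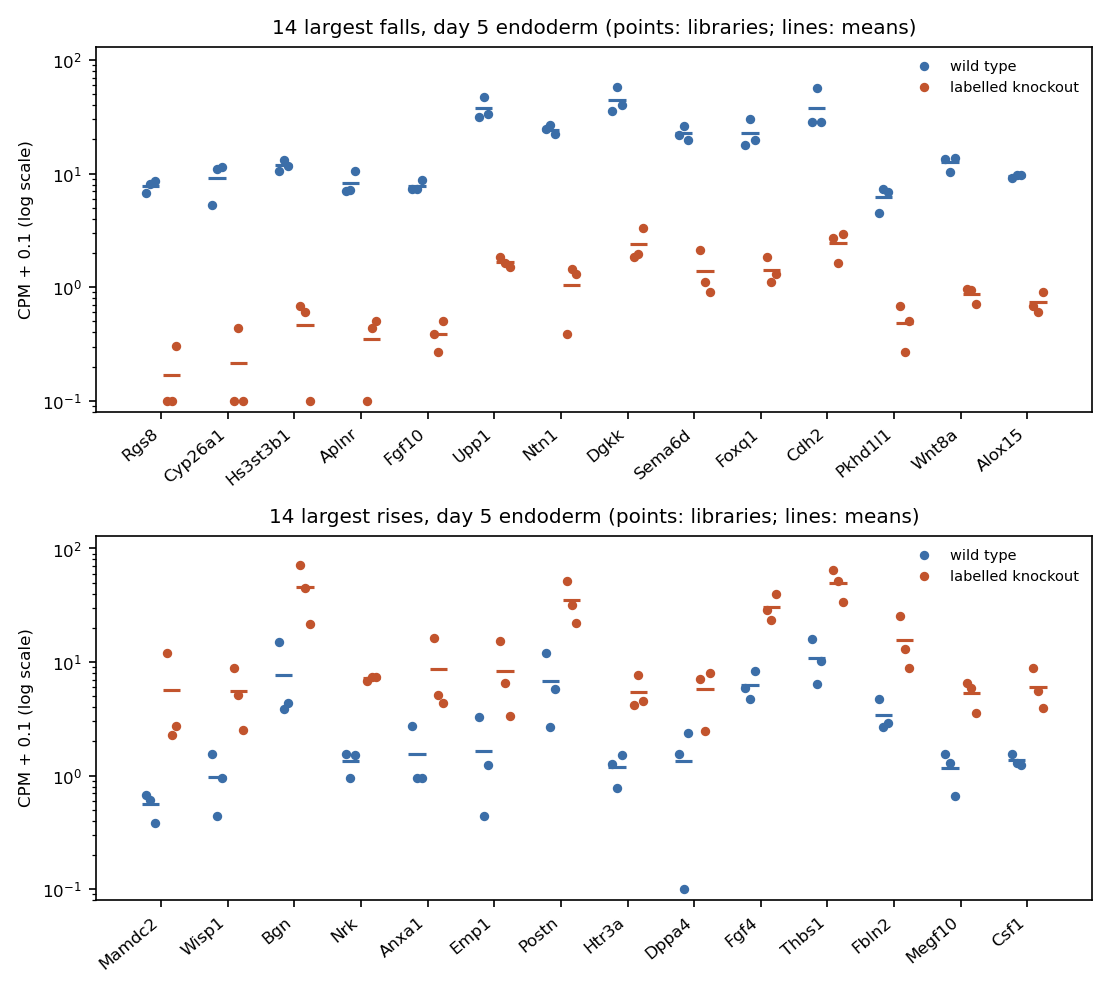
Level of the 14 largest falls (top) and the 14 largest rises (bottom) in each endoderm library, as CPM + 0.1 on a log scale, wild type in blue and the libraries labelled knockout in red, with group means as lines. The libraries of the 2 genotypes do not overlap in any of these genes, which the choice of genes required. Mamdc2 spreads from 2.20 to 11.9 CPM in the knockout.

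Central metabolism changed in parts. Of 23 glycolysis genes 5 were lower and none higher, with a median of -0.05. The glucose transporter gene Slc2a3 fell most, from 64.3, 103 and 57.6 to 23, 17.3 and 22.7 CPM (log2 fold change -1.89 ± 0.21 SE, adjusted p = 9.57e-07). The lactate dehydrogenase genes Ldha and Ldhb fell less, Ldha from 513, 525 and 448 to 341, 330 and 364 CPM (log2 fold change -0.52 ± 0.12 SE, adjusted p = 0.00434) and Ldhb from 72.7, 59.3 and 65.3 to 47.9, 36.4 and 38 (log2 fold change -0.70 ± 0.12 SE, adjusted p = 0.000448). Tpi1 (log2 fold change -0.35 ± 0.10) and Slc16a1 (-0.35 ± 0.12, chosen after its value was seen) were also lower. Both were lost under library totals (adjusted p 0.0936 and 0.085), by DESeq2 (0.0622 and 0.126) and without some library (Tpi1 0.0702 to 0.138, Slc16a1 0.0741 to 0.403). In all, 3 to 5 members were lower when 1 library was left out, 3 without knockout library 2 or 3, as under library totals and by DESeq2. Gfpt2, an enzyme of hexosamine synthesis chosen after its value was seen, went from 22.1, 50.4 and 30.5 to 7.26, 4.23 and 5.66 CPM (log2 fold change -2.67 ± 0.27 SE, adjusted p = 2.53e-07). Over 171 tested solute carriers 17 fell (9.94%) and 14 rose (8.19%), against 6.92% and 5.78% over all genes. Slc4a4, a bicarbonate transporter, and Slc22a23 fell by 3.44-fold and 2.8-fold. Slc7a3, a carrier of arginine and lysine, rose from 46.6, 62.9 and 53.4 to 121, 137 and 147 CPM (log2 fold change 1.30 ± 0.18 SE, adjusted p = 2.35e-05). Leaving out 1 library gave 7 to 15 higher carriers (7 without knockout library 2, 8 without wild type library 2 or 3) and 9 to 16 lower ones (9 without wild type library 2, 11 without knockout library 3), library totals gave 4 higher, and DESeq2 gave 6 higher and 10 lower.

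Of 32 tested genes of glutathione and thioredoxin chemistry, many of them known targets of the oxidant-response factor NRF2, 9 rose, 2 fell and 21 were not called, and the median was 0.27. Gclm, the modifier subunit of the enzyme that starts glutathione synthesis, went from 38.7, 30.5 and 33.9 to 78.2, 75.2 and 86.4 CPM (log2 fold change 1.23 ± 0.11 SE, adjusted p = 7.54e-08). Its catalytic partner Gclc went from 51.5, 44.2 and 49.7 to 74.7, 83.5 and 81.3 CPM (log2 fold change 0.73 ± 0.11 SE, adjusted p = 5.42e-05). Gstm1, a glutathione transferase, went from 14, 17.3 and 15 to 28.8, 36.1 and 30.3 CPM (log2 fold change 1.03 ± 0.14 SE, adjusted p = 2.26e-05), and the quinone reductase gene Nqo1 from 4.36, 3.77 and 4.52 to 12.8, 9.48 and 9.1 (log2 fold change 1.30 ± 0.26 SE, adjusted p = 0.00138). Every knockout library exceeded every wild type library in these 4 genes, which were chosen by their adjusted p on the same libraries.

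The other risen members, chosen after their values were seen, were Hmox1 (heme oxygenase, 0.93 ± 0.19 on the log2 scale), Gsr (glutathione reductase, 0.47 ± 0.10), Cbr3 (a carbonyl reductase, 1.16 ± 0.25), Txnrd1 (thioredoxin reductase, 0.39 ± 0.09) and Mt1 (a metallothionein, 1.82 ± 0.59). Nqo1, Gsr, Hmox1 and Mt1 lie on chromosome 8, whose median gene was 0.23 higher; without the genes of that chromosome and of Y, 5 of 27 members rose. Library totals left 7 higher, with Gsr (adjusted p 0.348) and Txnrd1 (0.545) lost. Txnrd1 was also lost without wild type library 2 (0.054), and Mt1 was lost without any 1 library but knockout library 3 (0.0645 to 0.164), by DESeq2 (0.0567) and by limma-voom (0.0687). Gpx4, the peroxidase that repairs lipid peroxides and also chosen after its value was seen, went the other way, from 29.4, 17.8 and 24.9 to 16.9, 6.6 and 6.07 CPM (log2 fold change -1.36 ± 0.28 SE, adjusted p = 0.00195), and Cbr1 was called lower too. Gpx4 was lower with any 1 library left out, and Cbr1 with none.

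The Gclm promoter is shown because NRF2 is known to act through antioxidant response elements, whose core can be written TGACNNNGC. The 300 bases given are chr3:122245307-122245606 of GRCm38.p6, plus strand, and RefSeq starts the gene at 122245487, inside them. The match, the reverse complement of the core, is in capitals.
Gclm: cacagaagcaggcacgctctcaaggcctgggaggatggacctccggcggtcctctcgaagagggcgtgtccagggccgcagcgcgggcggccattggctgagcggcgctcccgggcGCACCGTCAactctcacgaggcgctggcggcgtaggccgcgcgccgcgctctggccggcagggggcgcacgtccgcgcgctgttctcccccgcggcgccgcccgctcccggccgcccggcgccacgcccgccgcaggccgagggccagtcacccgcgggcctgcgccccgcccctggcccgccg
Searched on both strands, and chosen after the redox values were seen, the core occurred in 14.8% of the 9244 promoters, in 14.1% of those of genes called higher and in 15.6% of those of genes called lower. A match in this window is therefore common.

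Some lipid genes rose. In fatty acid and lipid handling 4 of 27 members rose (14.8%) and 1 fell (3.70%), against 5.78% and 6.92% over all genes. The desaturase gene Scd1 rose from 48.9, 63.3 and 65 to 79.9, 111 and 89.8 CPM (log2 fold change 0.67 ± 0.12 SE, adjusted p = 0.000693), and the cholesterol exporter gene Abcg1 from 3.49, 2.74 and 3.67 to 11.9, 8.3 and 8.29 (log2 fold change 1.52 ± 0.34 SE, adjusted p = 0.00384). Fads2 rose 1.5-fold, and Cpt1a, the gate of mitochondrial fatty acid oxidation, fell from 30.5, 28.6 and 23.4 to 15.1, 15.9 and 11.1 CPM (log2 fold change -0.97 ± 0.16 SE, adjusted p = 0.000237). Among 24 cholesterol synthesis genes 3 rose (12.5%) and 1 fell (4.17%). Sqle rose 1.55-fold and Mvd 1.55-fold, while Ebp fell from 8.73, 10.6 and 12.7 to 4.07, 3.22 and 3.44 CPM (log2 fold change -1.60 ± 0.28 SE, adjusted p = 0.0004). Library totals ended the calls of Scd1 (adjusted p 0.0936), Fads2 (0.155), Sqle (0.116) and Mvd (0.203, on chromosome 8). Mvd was lost by DESeq2 (0.0596), and Fads2 when wild type library 1, wild type library 3 or knockout library 3 was left out (0.0631, 0.11 and 0.0862). In the list of genes known to be induced by amino acid shortage through ATF4, 5 of 39 rose (12.8%) and 1 fell (2.56%). Besides Slc7a3 these were Slc7a5, Aars, Mthfd2 and Slc3a2 (the last 2 chosen after their values were seen), by 1.42-fold, 1.37-fold, 1.62-fold and 1.27-fold. Slc7a5 and Aars lie on chromosome 8, and library totals ended all 4 calls (0.147 to 0.636). Without wild type library 2 the adjusted p was 0.0529 for Aars and 0.0999 for Slc3a2, and that of Slc3a2 was 0.0693 without wild type library 3, 0.0538 without knockout library 1 and 0.0761 by DESeq2. Vldlr, a lipoprotein receptor, fell from 17.5, 20.9 and 20.3 to 4.36, 5.08 and 3.03 CPM (log2 fold change -2.23 ± 0.27 SE, adjusted p = 4.9e-06).

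Pluripotency genes did not move as a block: 8 of 27 rose and 4 fell. Pou5f1, the core pluripotency factor, was not called (log2 fold change 0.08 ± 0.10 SE, adjusted p = 0.69), at 267, 216 and 243 CPM against 248, 247 and 271. Utf1 rose from 52.1, 52.3 and 42.1 to 111, 121 and 122 CPM (log2 fold change 1.27 ± 0.15 SE, adjusted p = 3.06e-06), next to Fgf4 above. Nanog fell from 93.1, 90.5 and 107 to 44.2, 42.8 and 39.8 CPM (log2 fold change -1.19 ± 0.13 SE, adjusted p = 1.18e-06). Dppa2 and Dppa4, paired chromatin proteins of early embryos, were low in wild type. Dppa2, chosen after its value was seen, had 3 counts summed in wild type and 42 in the knockout, a ratio of 11.3 per library size (exact 95% binomial interval 3.61 to 57.0). Dppa4 stood at 1.45, 0 and 2.26 CPM against 6.97, 2.37 and 7.89 (log2 fold change 2.38 ± 0.57 SE, adjusted p = 0.00696). That p was 0.064 without wild type library 2. The other higher members were L1td1, Mybl2, Dppa5a and Zfp42, and other lower ones were Sall4 and Fgf5. Dppa5a, whose groups overlapped, was lost by DESeq2 (adjusted p 0.116), by limma-voom (0.107) and without several single libraries (0.067 to 0.257). Zfp42, on chromosome 8, was lost by limma-voom (0.084) and without any 1 library but knockout library 2 (0.0507 to 0.0893). Without wild type library 2, 3 members were higher, and 4 to 5 were without knockout library 3, wild type library 1 or wild type library 3.

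In the neural ectoderm list 4 of 15 rose and 4 fell. Pou3f1, a POU factor of epiblast and neural precursors, rose from 12.5, 11 and 9.32 to 46.2, 33.9 and 45.7 CPM (log2 fold change 1.92 ± 0.20 SE, adjusted p = 3.73e-07), and Sox3, Elavl3 and Map2 also rose. Nrcam, a neural adhesion molecule, fell from 65.2, 65.5 and 65.8 to 25.3, 32.7 and 22 CPM (log2 fold change -1.28 ± 0.17 SE, adjusted p = 1.5e-05), and Stmn2 from 30.5, 36.7 and 35.9 to 20.9, 20.8 and 19.2 (log2 fold change -0.77 ± 0.13 SE, adjusted p = 0.000236). Irx3 was also lower. Ddx4, the germ cell RNA helicase, rose from 0.582, 0.686 and 0.283 to 4.36, 1.35 and 4.85 CPM (log2 fold change 2.56 ± 0.57 SE, adjusted p = 0.00419). Syce2 and Tdrd1 were also called, making 3 of 10 tested germline genes higher, and 1 was called without wild type library 2 or 3, under library totals or by DESeq2. Ddx4 was called in every alternative.

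Of 22 tested collagens 6 rose, 1 fell and 15 were not called. Of 20 tested fibroblast and feeder markers 8 rose, none fell and 12 were not called, with a median of 1.40. Col1a1, Col1a2 and Col5a2 rose and stand in both lists. Bgn, a small proteoglycan gene, stood at 14.8, 3.77 and 4.24 CPM in wild type and 71.5, 44.4 and 21.4 in the knockout (log2 fold change 2.66 ± 0.46 SE, adjusted p = 0.000336). Postn, which encodes the matrix protein periostin, stood at 11.9, 2.57 and 5.65 against 51.4, 31.7 and 21.8 CPM (log2 fold change 2.47 ± 0.45 SE, adjusted p = 0.000615), and the fibulin gene Fbln2 at 4.66, 2.57 and 2.83 against 25.3, 13 and 8.7 (log2 fold change 2.21 ± 0.43 SE, adjusted p = 0.00113). Col1a1 stood at 20.4, 5.49 and 7.06 against 71.8, 44.9 and 19.2 CPM (log2 fold change 2.11 ± 0.45 SE, adjusted p = 0.0028), and its groups overlapped. Thbs1, a thrombospondin gene induced in wounds, stood at 16, 6.34 and 10.2 against 64.2, 52 and 33.8 CPM (log2 fold change 2.27 ± 0.37 SE, adjusted p = 0.000174). Wild type library 1 and knockout library 1 were the highest of their genotypes in each of these 5 genes.

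The summed level of the 24 fibroblast and feeder markers in the table was 222, 105 and 118 CPM in the wild type libraries and 605, 326 and 192 CPM in the knockout, so knockout library 3 lay below wild type library 1. No marker was at 0 in all libraries, and 2 were at 0 in wild type. Whether feeder or fibroblast-like cells are the source was not tested. Leaving out wild type library 1 gave 13 higher markers and 10 higher collagens, and leaving out wild type library 2 gave 4 and 3. With the replicate number as a block, 15 of 20 tested markers were higher and 1 lower. For collagens the block gave 13 of 22 higher and 1 lower. Other rises with the same order of libraries were Anxa1 (2.62, 0.857 and 0.848 CPM against 16.3, 5.08 and 4.25) and Emp1 (3.2, 0.343 and 1.13 against 15.1, 6.43 and 3.24), which encode a lipid-binding annexin and an epithelial membrane protein. Both calls were lost without wild type library 2 (adjusted p 0.094 and 0.119), wild type library 3 (0.0524 for both) or knockout library 1 (0.0626 and 0.0666), and Emp1 by DESeq2 (0.0763). Mamdc2 (0.582, 0.514 and 0.283 against 11.9, 2.2 and 2.63 CPM) was lost without the same libraries (0.0774, 0.058 and 0.0893) and by limma-voom (0.096). Wisp1, a matricellular Wnt target, stood at 1.45, 0.343 and 0.848 against 8.72, 5.08 and 2.43 CPM (log2 fold change 2.66 ± 0.56 SE, adjusted p = 0.0024). Col10a1 rose 3.29-fold, and Col23a1, a membrane collagen gene, fell from 4.95, 8.57 and 5.09 to 0.872, 0.847 and 1.62 CPM (log2 fold change -2.49 ± 0.41 SE, adjusted p = 0.000215).

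The remaining large rises were low in every wild type library. Nrk, a kinase gene of the X chromosome, stood at 1.45, 0.857 and 1.41 CPM against 6.68, 7.28 and 7.28 (log2 fold change 2.56 ± 0.36 SE, adjusted p = 3.47e-05). Htr3a, a serotonin-gated channel gene, stood at 1.16, 0.686 and 1.41 against 4.07, 7.62 and 4.45 CPM (log2 fold change 2.39 ± 0.48 SE, adjusted p = 0.0015), and Megf10, an engulfment receptor gene, at 1.45, 1.2 and 0.565 against 6.39, 5.76 and 3.44 (log2 fold change 2.20 ± 0.49 SE, adjusted p = 0.0043). Csf1, the macrophage growth factor gene, stood at 1.45, 1.2 and 1.13 against 8.72, 5.42 and 3.84 CPM (log2 fold change 2.18 ± 0.43 SE, adjusted p = 0.0014). All 4 were at or below 1.45 CPM in wild type and at or above 3.44 CPM in every knockout library. They are among the 14 largest rises, which were chosen without overlap.

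Replication-dependent histone genes, whose messages lack poly(A) tails and peak in S phase, were called higher in 54 of 68 cases and lower in none, with a median of 0.56. Hist1h1a stood at 184, 141 and 151 CPM in wild type and 281, 219 and 218 in the knockout (log2 fold change 0.59 ± 0.14 SE, adjusted p = 0.00614), a call lost without wild type library 2 (0.0559) and under library totals (0.153). Hist3h2a stood at 62.8, 57.1 and 42.4 against 109.5, 94 and 77.5 (log2 fold change 0.78 ± 0.17 SE, adjusted p = 0.00334). The genotypes did not overlap in 39 of the 54, which calls on the same libraries make likely. Over all genes, called or not, 14.7% lay above wild type in this way. The number of calls moved with single libraries: 1 gene was called without wild type library 2, 6 without knockout library 1, 19 without wild type library 3, and 2 under library totals, where the median was 0.41. DESeq2 called 32. Many histone genes share near-identical sequences, so their counts may not be separate. Of 35 DNA replication genes, which support S phase, 5 rose (14.3%, against 5.78% over all genes) by 1.36-fold to 1.64-fold and none fell. These were Cdt1, Mcm5 and Gins2 (the last chosen after its value was seen) on chromosome 8 and the DNA polymerase alpha subunit genes Pola1 and Pola2. Cdt1 stood at 35.2, 35.8 and 37 CPM against 47.1, 55.7 and 56.4 (log2 fold change 0.57 ± 0.11 SE, adjusted p = 0.00127), and Pola1 at 62.6, 54.7 and 63 against 73.8, 84.5 and 90.6 (log2 fold change 0.48 ± 0.11 SE, adjusted p = 0.00373). None of the 5 was called under library totals, and Mcm5 was lost without wild type library 2 (adjusted p 0.0627).

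Of 26 tested SIN3-HDAC genes 1 rose (3.85%) and 2 fell (7.69%), shares near the 5.78% and 6.92% over all genes. Rbbp7, a histone-binding subunit of SIN3 and polycomb complexes, fell from 154, 146 and 163 to 85.1, 68.9 and 84.7 CPM (log2 fold change -0.96 ± 0.12 SE, adjusted p = 5.24e-06). Foxk1, a SIN3-recruiting forkhead factor, fell by 1.37-fold (log2 fold change -0.45 ± 0.11 SE, adjusted p = 0.00857) and was lost without wild type library 2 (0.0615) and by DESeq2 (0.0622). Tet1, a DNA demethylase, rose from 126, 128 and 153 to 173, 221 and 225 CPM (log2 fold change 0.61 ± 0.12 SE, adjusted p = 0.00123), a call that library totals ended (0.175). Among 27 polycomb and DNA methylation genes Tet1 and Cbx7 rose (7.41%), both lost under library totals (0.228 for Cbx7), and Bmi1, a subunit of polycomb complex 1, fell from 9.31, 11.8 and 9.89 to 5.52, 5.08 and 3.24 CPM (log2 fold change -1.20 ± 0.22 SE, adjusted p = 0.000815). Imprinted genes, expressed from 1 parental allele, had 6 of 30 members lower and 1 higher. Peg3 stood at 221, 221 and 220.1 CPM against 68, 70.8 and 60.9 (log2 fold change -1.73 ± 0.14 SE, adjusted p = 1.51e-08), Mest at 139, 179.7 and 137 against 56.7, 59.6 and 62.3 (log2 fold change -1.36 ± 0.10 SE, adjusted p = 5.68e-09), and the growth factor receptor adaptor gene Grb10 at 184, 265 and 176 against 69.2, 93.8 and 81.9 (log2 fold change -1.35 ± 0.14 SE, adjusted p = 6.21e-07). Impact fell by 1.56-fold. Peg3 and Mest are expressed from the paternal allele, while Grb10 is maternal in most tissues. The 6 lower calls stood at 6 or 7 with any 1 library left out.

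Housekeeping groups gave few calls. None of 80 cytosolic ribosomal protein genes was called, 1 of 76 mitochondrial ribosomal protein genes was higher, and 2 of 85 oxidative phosphorylation genes were lower. No heat shock gene (16), RNA polymerase subunit gene (27) or F-box gene (34) was called, and 1 of 36 proteasome genes was higher. Over all genes 12.7% were called. A missing call does not show that a gene did not differ.

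Promoters of the called genes were described by their letters. RefSeq promoters were matched for 9244 of 11635 tested genes, 516 of those called higher and 604 of those called lower, with the first listed promoter of a gene used. The median number of CpG was 22 over all, 18 in genes called higher and 21 in genes called lower. The forkhead motif TGTTTAC was found in 2.46% of all promoters, 3.81% of those of lower genes and 3.10% of those of higher genes. The E-box CACGTG was in 10.6%, 8.44% and 7.95% in the same order, the T-box motif AGGTGTGA in 0.768%, 0.497% and 0.775%, the TCF motif CTTTGAT in 2.37%, 2.32% and 2.52%, and the E2F motif TTTGGCGC in 1.09%, 0.497% and 1.94%. These are counts of letters on both strands with no test.

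The genotype effect differed between the endoderm and mesoderm directions for 163 genes (1.4% of those tested) by the interaction test, and 95 of these were called in endoderm, 74 lower and 21 higher. The 2 effects share no library. Flt1 had a log2 fold change of -3.76 ± 0.21 in the endoderm direction and -0.05 ± 0.28 in the mesoderm direction (interaction -3.71 ± 0.37, adjusted p = 3.6e-06). Adamts9 had -3.38 ± 0.15 and -0.28 ± 0.24 (interaction adjusted p = 2.63e-06), and Foxq1 -4.15 ± 0.32 and 0.66 ± 0.71 (adjusted p = 0.00345). Pcdh8, Jag1 and Nrcam likewise fell in endoderm, with mesoderm values of 0.58 ± 0.29, 0.16 ± 0.20 and 0.15 ± 0.24 that were not called (interaction adjusted p = 3.08e-05, 0.000395 and 0.0124). Mest and Dhrs3 fell in endoderm and rose in mesoderm, Mest with -1.36 ± 0.10 against 0.50 ± 0.12 (adjusted p = 4.74e-07) and Dhrs3 with -1.34 ± 0.32 against 1.56 ± 0.43 (adjusted p = 0.0045). Nrk rose in endoderm, with 0.03 ± 0.27 in mesoderm (interaction adjusted p = 0.00387). For Cyp26a1, Gclm and Cdh2 the difference between directions was not called (adjusted p = 0.89, 0.835 and 0.117).

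**Figure D5:**
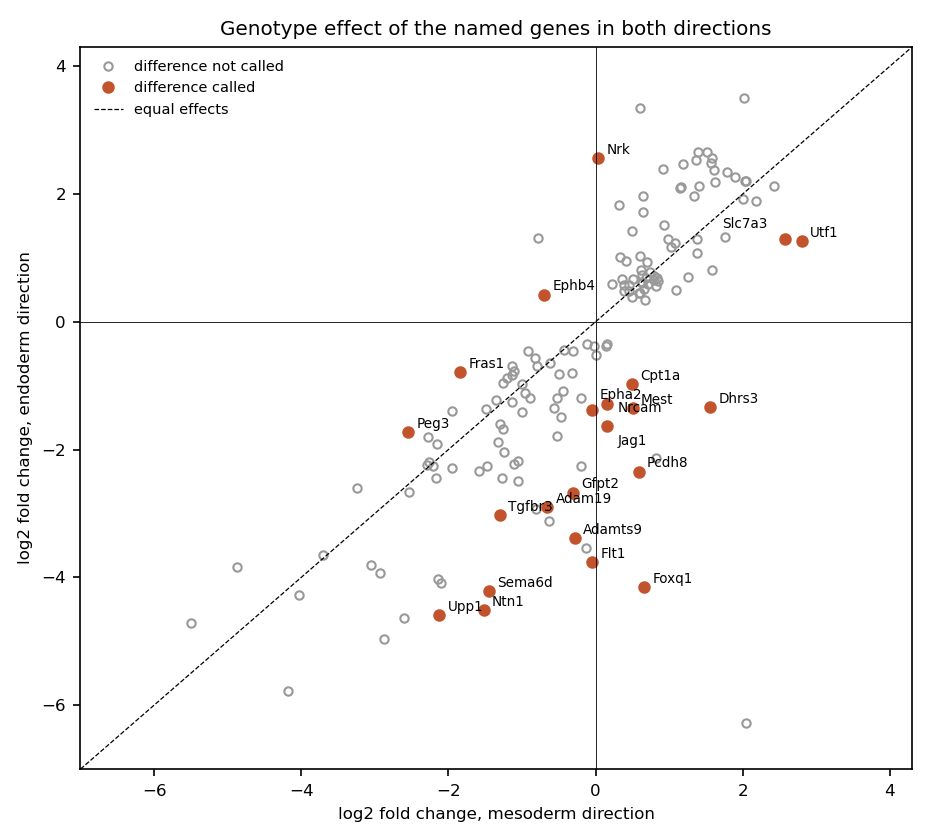
Log2 fold change of the named genes in the mesoderm direction (horizontal) and the endoderm direction (vertical), with the line of equal effects dashed. Filled points are genes whose effect differed between directions by the interaction test. Most of them lie below the line, with Flt1 and Adamts9 near 0 in mesoderm and at -3.76 and -3.38 in endoderm.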

How the data were processed

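RNA was sequenced from 12 libraries, 3 for each of 4 groups, of which 6 (the endoderm direction) are described. The authors deposited raw counts per gene in 1 table; the tools and build named in the submitters' processing notes are STAR, DESeq2 and mm10. For the counter, annotation and strand setting the entry is: not given in the sources used here. Rn45s (79.7% to 81.8% of counts) was left out of library sizes. Mir6236 and Lars2 were kept in them, except in 1 alternative. In wild type endoderm library 1, 26 gene cells held dates and were left out; 16 of these genes were tested on 11 libraries. Gene symbols missing in the table were named from RefSeq for 346 of 347 genes.

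Counts were filtered (filterByExpr, minimum 10), scaled with TMM factors and tested with edgeR 4.0.16 (quasi-likelihood F test, R 4.3.3) in 1 fit of all 12 libraries, with Benjamini-Hochberg adjustment over 11635 genes at 0.05. The SE is the log2 fold change over the square root of F. Intervals of count ratios are exact 95% binomial and cover counting error only. CPM values are scaled to library size times TMM factor. By library size alone 3 counts would be worth 0.449 to 1.08. Only the edgeR test of the endoderm contrast was also run on simulated counts, with spread taken from these libraries. The outcome of that run is not given here. The difference between directions is the interaction term. Alternatives were other scalings, filters, DESeq2 1.42.0, limma-voom (limma 3.58.1), a test against 1.5-fold, a replicate block and leaving out each library.

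Named genes were Arid4b, the 14 largest rises and 14 largest falls by log2 fold change (called, at least 5 CPM on average in the higher genotype, no overlap, outside the 3 panels, no predicted gene models), and up to 4 called members with the smallest adjusted p of each list described. Any other gene named was chosen after its values were seen, whether or not it is marked so. The members, lists and families were chosen with earlier results of these data known. Promoters and microRNAs are from RefSeq (GRCm38.p6). Some named genes that met the rule are not reported here.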

Additional observations from a re-analysis of the deposited data

Results flagged for a closer look

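The genotype effect of 22 named genes differed between directions by the interaction test, given here as the endoderm log2 fold change minus the mesoderm one. A larger fall or smaller rise in endoderm was found for 18 of them. The transcription factor, receptor and protease genes were Foxq1 (-4.81), Flt1 (-3.71), Adamts9 (-3.10), Adam19 (-2.24), Tgfbr3 (-1.73) and Epha2 (-1.32). The guidance and adhesion genes were Ntn1 (-2.99), Pcdh8 (-2.93), Sema6d (-2.77) and Nrcam (-1.43), and the Notch ligand gene was Jag1 (-1.80). The metabolic genes were Dhrs3 (-2.90), Upp1 (-2.47), Gfpt2 (-2.37) and Cpt1a (-1.47), and the imprinted gene was Mest (-1.86). Utf1 (-1.54) and Slc7a3 (-1.27) rose in both directions and rose less in endoderm.

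The difference was positive for 4 genes. Peg3 (0.81) and Fras1 (1.06) fell in both directions and fell less in endoderm. Ephb4 (1.13) had 0.43 ± 0.12 in endoderm and -0.70 ± 0.12 in mesoderm. Its endoderm call was lost under library totals (adjusted p 0.569), by DESeq2 (0.141) and in 4 of the 6 fits that each left out 1 library (0.0529 to 0.237). Nrk (2.53) rose in endoderm with 0.03 ± 0.27 in mesoderm. Adjusted p was below 0.05 for all 22, which is how they were found, and the causes were not tested. Groups of 3 libraries were not tested for single outlying samples.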

How the results depend on the processing

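Counts of calls depended on the test and on single libraries. DESeq2 called 914 genes, 394 higher and 520 lower. The test against 1.5-fold called 372, 114 higher and 258 lower, of which 366 differed by 2-fold or more. Library totals without TMM factors gave 255 higher genes. Leaving out 1 library gave 836 to 1321 called genes, 319 to 575 higher, 517 to 746 lower and 462 to 594 at 2-fold or more; the lowest values came without wild type library 2. The interaction test gave 377 genes with no filter on low counts. Apart from the replicate block (below), the other settings run for these counts stayed within 1.5 times of them. The added setting without genes of chromosomes 8 and Y, chosen after seeing the data, gave 576 higher and 739 lower genes. Arid4b was not called in any alternative, with log2 fold changes of 0.02 to 0.25. Of 155 named genes that were called, 83 kept the call in every alternative that tested them. The call was lost for 70 in the 1.5-fold test, 21 with DESeq2 and 40 without some library, and none reversed.

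The replicate numbers were not taken as pairs: deviations of same-numbered libraries correlated at 0.171, 0.0940 and 0.0533, and wild type library 2 correlated best with knockout library 3 (0.103). Between libraries of unlike number the correlations ran from -0.169 to 0.103, so a pairing is not excluded. With the replicate number as a block 1807 genes were called, 875 higher and 932 lower, and 255 genes differed between directions. The causes of these shifts were not tested. Depth limits genes under a few CPM. Outside Rn45s, Mir6236 and Lars2, 1378827 to 2342887 counts remained per endoderm library. The largest ratios rest on 0 to 2 knockout counts and their intervals are wide.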

Other observations

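Markers of cell types other than endoderm and fibroblast were summed per library as values only. The 17 blood and endothelium markers in the table summed to 77.1, 92.3 and 72.0 CPM in wild type and 18.6, 12.5 and 12.3 CPM in the knockout. Such a sum can rest on 1 gene. Flt1, a defining marker of these cells, alone stood at 57.9, 72.4 and 53.1 CPM against 6.1, 3.39 and 4.65. Of the 17, 4 were tested and 3 of these fell. The 16 trophoblast markers summed to 73.9, 82.0 and 90.1 CPM against 41.0, 31.8 and 31.3 CPM. The 36 germline markers summed to 41.6, 40.1 and 41.8 CPM against 59.0, 53.7 and 73.2 CPM. In these lists the genotypes did not overlap. The sums of 31 neural markers (599 to 619 CPM against 551 to 583 CPM) were also apart, and those of 18 extraembryonic endoderm markers (425 to 532 CPM against 368 to 480 CPM) overlapped.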
